A study of Rattus norvegicus with 57 samples.

Results

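The proteasome is described here through its genes in rat kidney after cisplatin. Members were all genes with a probe set whose single platform symbol starts with Psma, Psmb, Psmc, Psmd or Psme followed by a digit, whatever their level. The rule found 41 genes on 55 probe sets, out of 14217 genes named on the array. All 41 passed the filter on dim probe sets and were tested among 11683 genes. Of these, 39 encode subunits, activators or assembly chaperones of the proteasome. The other members, Psmc3ip and Psme3ip1, share the spelling of their symbols with the family but encode no subunit, and they are reported apart. Psmb6 and Psme3 are measured only by probe sets that carry several symbols, and they are not analysed here.

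The animals were male Han Wistar rats, 8 weeks old when grouped for dosing, given cisplatin, a platinum drug that damages DNA and injures the renal tubule, as 1 intraperitoneal injection of 1 or 3 mg/kg in saline. Control rats received saline alone. Kidney tissue enriched in cortex was taken on day 3, 5, 8 or 26 after the injection, and each animal's RNA was hybridised to its own Affymetrix array. The 57 arrays form 12 groups of 5 animals, except 4 control animals on day 26 and 3 animals at 1 mg/kg on day 5; the design text states 6 per group. The comparisons ask what each dose did on each day and whether expression was back at the control level by day 26.

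The proteasome degrades proteins that carry ubiquitin chains. Its barrel-shaped core particle has outer rings of alpha subunits, which form the gate, and inner rings of beta subunits, some of which carry the proteolytic sites. A regulatory particle sits on the gate: its non-ATPase subunits bind the ubiquitinated protein and remove the chain, and its ring of ATPases unfolds the protein and feeds it into the core. Interferon gamma exchanges the catalytic beta subunits for the immunoproteasome subunits Psmb8, Psmb9 and Psmb10, which favour peptides for presentation on class I molecules and are abundant in leukocytes. Transcription of the constitutive genes is raised by the factor Nfe2l1 when proteasome capacity is short. The antioxidant regulator Nfe2l2 can also act on several of them.

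Signals had been scaled by the authors to a common level on every array. A signal is the brightness of a probe set in arbitrary units, and the signals of different genes are not comparable with each other. A change is the difference of log2(signal + 16) between group means with its standard error from a limma fit over all 57 arrays. A gene is said to have risen or fallen, or to be called, where the p-value adjusted by Benjamini-Hochberg over the 11683 genes is under 0.05. The 3′/5′ ratio of the actin control probe sets, a measure of RNA integrity and labelling, ran from 5.74 to 6.02 at 3 mg/kg on day 3 and from 4.48 to 5.08 in the day 3 controls, with no overlap. On days 5, 8 and 26 its range at 3 mg/kg overlapped that of the same-day controls. The injury marker Havcr1 rose at 3 mg/kg on day 3 by 3.47 ± 0.62, on day 5 by 4.85 ± 0.62 and on day 8 by 5.88 ± 0.62.

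At 3 mg/kg, some proteasome genes rose on days 3, 5 and 8, by small amounts, and none was called on day 26. Of the 39 genes, 5 rose and 1 fell on day 3, where 5.57% of all genes tested rose and 4.28% fell. With the actin ratio as a covariate, 1 of the 39 was called on day 3 in place of 6. Shares of all genes called are given for the main fit only. On day 5, 9 rose and 0 fell, against 5.31% and 3.49% of all genes. The day 5 count was 3 in place of 9 without control replicate 3 or without treated replicate 1, and 4 without treated replicate 3. On day 8, 15 rose and 0 fell, against 21.4% and 15.9%, and 7 rose when the day 8 groups were fitted alone. On day 26, 0 of 39 were called, with 4 at an unadjusted p under 0.05, where 0.753% of all genes were called. Of these 4, 3 were the immunoproteasome genes Psmb8, Psmb9 and Psmb10, with changes from 0.32 to 0.60, and 1 was among the 36 others. The members called higher therefore made up 12.8%, 23.1% and 38.5% of the 39 on days 3, 5 and 8.

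The median change over the 39 genes was 0.059, 0.12, 0.11 and -0.013 on days 3, 5, 8 and 26. The median over all genes tested was 0.036, 0.00019, 0.043 and 0.026. The number of the 39 genes above the median of all genes was 20, 35, 31 and 13 on the same days. Changes were modest throughout: the largest on day 8 was 0.66, for Psmb10, and the lowest was -0.071, for Psmb5. A fit restricted to the compared groups called 7 genes on day 8 in place of 15.

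**Figure D1:**
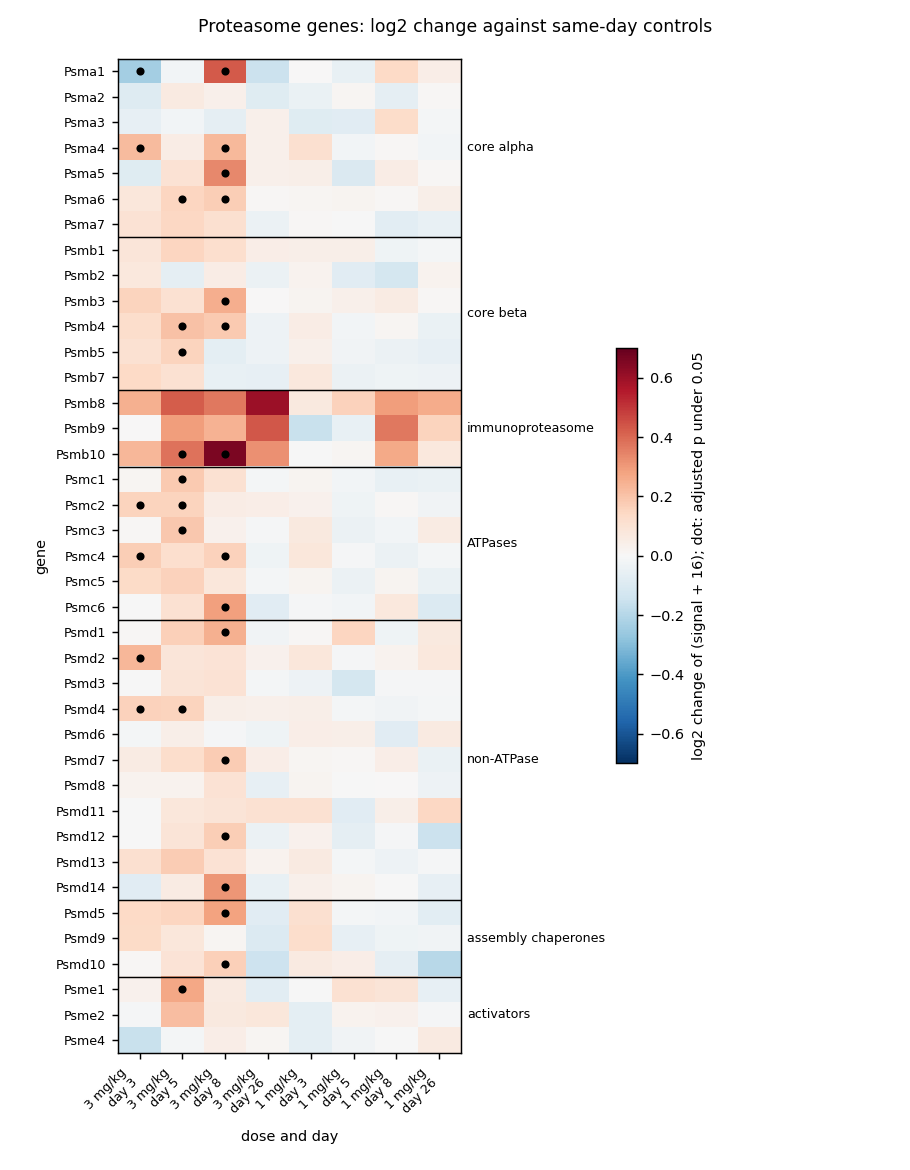
Each row is 1 of the 39 proteasome genes, grouped by role, and each column is a dose and day set against the same-day controls; colour gives the log2 change of (signal + 16), from blue for lower to red for higher, and a dot marks an adjusted p under 0.05. The dots lie in the 3 mg/kg columns of days 3, 5 and 8, the immunoproteasome rows are red in all 4 columns of 3 mg/kg except Psmb9 on day 3, and the 1 mg/kg columns hold no dot.

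The genes that rose overlapped in part between the days. Days 3 and 5 shared Psmc2 and Psmd4, which are 40% of the day 3 genes and 22.2% of the day 5 genes. Days 5 and 8 shared Psma6, Psmb4 and Psmb10, which are 33.3% of the day 5 genes and 20% of the day 8 genes. Days 3 and 8 shared Psma4 and Psmc4, which are 40% and 13.3%. Different genes past the threshold do not show different responses. When the change of the effect from day to day was tested, 0 of 39 differed between days 3 and 5, where 1.52% of all genes did, and 2 differed between days 5 and 8, where 16.3% of all genes did. These were Psma1 and Psmb5, described with their groups.

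The start regions of some members are shown here because the text returns to these genes with their values; Psme2, one of them, was called on no day. RefSeq promoters of the rat assembly GRCr8 were at hand for 35 of the 39 genes, and the 250 bases before the start were searched on both strands. The window of Psmb10, the immunoproteasome subunit with the largest rise on day 8, lies on the minus strand at chr19:50743298-50743372, from 80 to 6 bases before the start. Psme2, a subunit of the activator that is paired with the immunoproteasome, is shown on the minus strand at chr15:33052772-33052831. In both, capitals mark the core of the interferon-stimulated response element, which is GAAA, then 2 bases of any kind, then GAAA.
Psmb10: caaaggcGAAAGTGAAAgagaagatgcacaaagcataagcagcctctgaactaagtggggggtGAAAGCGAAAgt
Psme2: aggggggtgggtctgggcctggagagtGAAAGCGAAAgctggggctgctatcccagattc

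The window of Psmb10 holds the element 2 times, starting 73 and 17 bases before the start. It was found in 4 of the 32 promoters outside the immunoproteasome (12.5%: Psma4, Psmb3, Psme2 and Psmd7) and in 3.41% of all 33469 promoters searched. Neither Psmb8 nor Psmb9 held it in this window. The alpha subunit Psma5 (plus strand, chr2:198584425-198584484) and the beta subunit Psmb3 (plus strand, chr10:83193707-83193771), which both rose on day 8, each hold CCAAT 2 times, in capitals below. Within the 250 bases, Psma3, Psmb2 and Psmb7, not called against controls on day 8, also hold CCAAT 2 or more times. So do Psmd7 and Psmd10, which rose on that day. The catalytic subunit Psmb5 (minus strand, chr15:32047410-32047459) holds TGACNNNGC, the core of the antioxidant response element, also in capitals.
Psma5: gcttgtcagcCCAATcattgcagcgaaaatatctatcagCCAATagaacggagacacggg
Psmb3: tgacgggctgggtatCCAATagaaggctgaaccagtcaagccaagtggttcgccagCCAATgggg
Psmb5: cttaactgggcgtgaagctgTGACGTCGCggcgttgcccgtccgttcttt

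CCAAT was found in 16 of the 32 promoters (50%) and in 34.0% of all promoters. TGACNNNGC was found in 6 of the 32 (18.75%: Psma3, Psmb2, Psmb5, Psmd1, Psmd9 and Psme4), against 10.1% of all promoters, and in 0 of the 3 immunoproteasome promoters. TTCNNNGAA, the site type of STAT factors, was found in 3 of the 32 (9.38%: Psmc6, Psmd3 and Psmd7) and in Psmb8, against 7.67% of all promoters. These matches are letters in a window and show no binding.

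Among the alpha subunits, 4 of 7 rose on day 8 (Psma1, Psma4, Psma5 and Psma6), 1 on day 5 (Psma6), and 1 rose and 1 fell on day 3 (Psma4 and Psma1). Of all genes tested, 5.57%, 5.31% and 21.4% rose on days 3, 5 and 8, and 4.28% fell on day 3. The median change of the alpha subunits was -0.059, 0.065, 0.17 and 0.011 on days 3, 5, 8 and 26. Psma1, an alpha subunit of the core, moved in opposite directions on days 3 and 8. On day 3 its signal was 554, 625, 530.2, 578 and 627 in replicates 1 to 5 at 3 mg/kg and 705, 638, 731, 639 and 736 in controls. On day 8 it was 712, 893, 768, 888 and 880.4 at 3 mg/kg and 706, 465, 633, 603 and 666 in controls. All treated animals lay below all controls on day 3 and above them on day 8, on day 8 by a narrow margin between replicate 1 of each group.

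Psma1 changed by -0.24 ± 0.078 (adjusted p = 0.043) on day 3, -0.018 ± 0.078 (adjusted p = 0.924) on day 5, 0.43 ± 0.078 (adjusted p = 1.92e-05) on day 8 and -0.15 ± 0.083 (adjusted p = 0.375) on day 26. The effect differed between days 5 and 8 by 0.45 ± 0.11 (adjusted p = 0.00392) and between days 8 and 26 by -0.58 ± 0.11 (adjusted p = 0.000308). The day 8 rise stayed called with each animal left out in turn and under every scaling tried. The day 3 fall was not called under quantile normalization (-0.21), with the actin ratio as a covariate (-0.21) or with the replicate number as a block (-0.24). It was also lost without control replicate 1, 3 or 5 or treated replicate 1, 3 or 4 of day 3, where it lay between -0.20 and -0.23.

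Psma5, also an alpha subunit, had day 8 signals of 738, 879.6, 665, 746 and 736 at 3 mg/kg and 565, 589, 604, 609 and 588 in controls. The lowest treated animal was above the highest control, and replicate 2 was the highest. The change was 0.34 ± 0.067 (adjusted p = 7.93e-05) on day 8, 0.10 ± 0.067 (adjusted p = 0.363) on day 5 and 0.034 ± 0.071 (adjusted p = 0.857) on day 26. Psma4 rose on day 3 by 0.22 ± 0.057 (adjusted p = 0.00775) and on day 8 by 0.23 ± 0.057 (adjusted p = 0.00124). Its day 3 signals were 511, 531, 525, 547 and 551 at 3 mg/kg and 497, 471, 432, 424 and 453 in controls, without overlap, and on day 8 the groups overlapped, with treated replicates 1 and 3 inside the control range. With the actin ratio as a covariate Psma4 was not called on day 3 (0.20). Psma2 and Psma3 were called on no day, with changes from -0.091 to 0.065 and from -0.065 to 0.033.

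**Figure D2:**
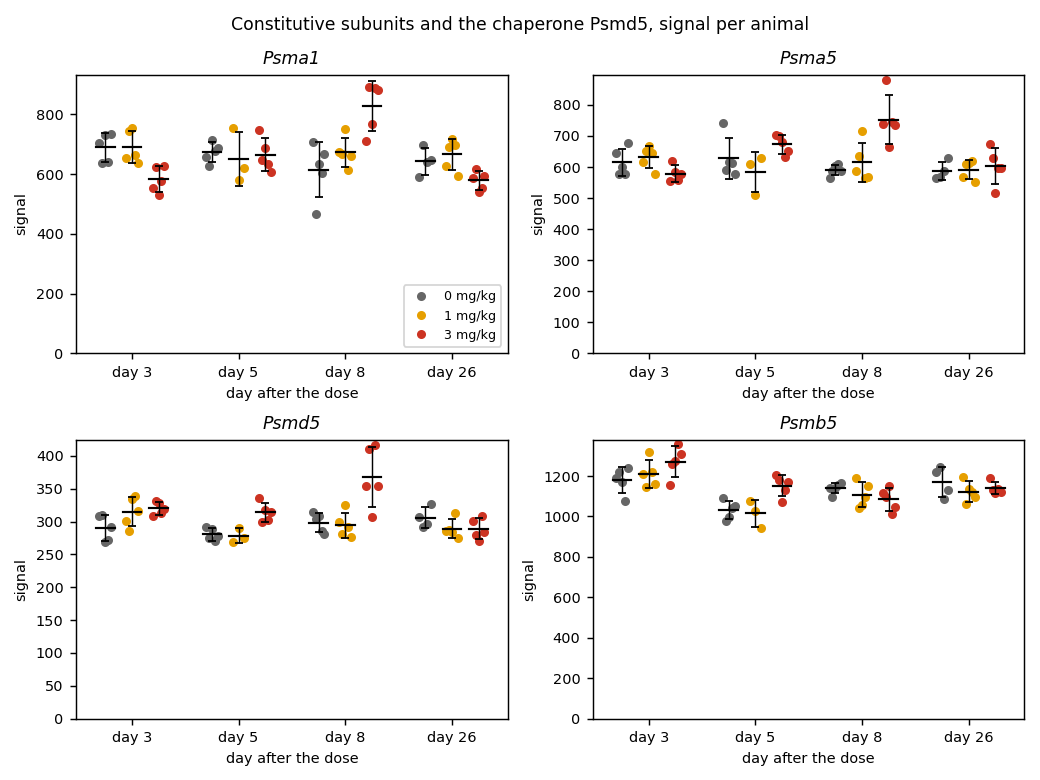
Signal of the alpha subunits Psma1 and Psma5, the assembly chaperone Psmd5 and the catalytic beta subunit Psmb5, 1 point per animal, by day and dose (grey 0, orange 1, red 3 mg/kg); horizontal bars are group means and error bars the SD. Psma1, Psma5 and Psmd5 have their highest group mean at 3 mg/kg on day 8, whereas Psmb5 at 3 mg/kg is above its controls on day 5 and not on day 8.

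Among the constitutive beta subunits, 2 of 6 rose on day 5 (Psmb4 and Psmb5) and 2 on day 8 (Psmb3 and Psmb4), with none called on day 3. The shares of all genes that rose on days 5 and 8 were 5.31% and 21.4%. All 6 beta subunits had changes above 0 on day 3, from 0.075 to 0.16. Psmb5 carries the chymotrypsin-like site, the target of the proteasome inhibitors used in myeloma. Its day 5 signals were 1204, 1179, 1072, 1132 and 1173 at 3 mg/kg and 1089, 979, 998, 1044 and 1054 in controls, where only treated replicate 3 lay below the highest control. On day 8 they were 1118, 1099, 1152, 1011 and 1047 at 3 mg/kg and 1142, 1097, 1138, 1156 and 1164 in controls, where the groups overlapped and the 2 lowest animals were treated ones.

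Psmb5 changed by 0.15 ± 0.048 (adjusted p = 0.0307) on day 5 and -0.071 ± 0.048 (adjusted p = 0.251) on day 8, and the difference between these effects was -0.23 ± 0.067 (adjusted p = 0.0167). The day 5 call was lost without control replicate 2 or 3 or treated replicate 1, 2 or 5, at 0.14 to 0.15, and when arrays were centred on their 75th percentile (0.15). Psmb7, which carries the trypsin-like site, was called on no day: it changed by 0.14 ± 0.058 (adjusted p = 0.114) on day 3, 0.11 ± 0.058 (adjusted p = 0.251) on day 5 and -0.053 ± 0.058 (adjusted p = 0.502) on day 8. Its day 8 signals ran from 519 to 607 at 3 mg/kg and from 548 to 636 in controls.

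The structural beta subunits Psmb3 and Psmb4 carry no proteolytic site. Psmb3 had day 8 signals of 684, 809, 598, 732 and 698 at 3 mg/kg and 589, 609, 589, 564 and 575 in controls. Replicate 3 lay inside the control range and the other treated animals above it. The change was 0.25 ± 0.056 (adjusted p = 0.000318), and from day 8 to day 26 the effect changed by -0.25 ± 0.082 (adjusted p = 0.0299). Psmb4 rose on day 5 by 0.21 ± 0.054 (adjusted p = 0.0105) and on day 8 by 0.18 ± 0.054 (adjusted p = 0.00626). On day 5 all its treated animals (1316, 1244, 1226, 1219 and 1224) lay above all controls (1066, 1166, 1009.7, 1098 and 1049.5). On day 8 treated replicate 3 lay within the control range.

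Among the 39 genes, Psmb8 had the largest change on days 3, 5 and 26 and Psmb10 on day 8, and on day 8 Psmb9 and Psmb8 had the largest spread between animals at 3 mg/kg. Psmb10, which takes the place of Psmb7 in the immunoproteasome, rose on days 5 and 8. On day 8 its signals were 143, 109, 143, 95.4 and 124 at 3 mg/kg, 109.6, 76.1, 125, 78.2 and 66.8 at 1 mg/kg and 65.8, 64.2, 79.1, 74.7 and 73.1 in controls. Every animal at 3 mg/kg lay above every control, and replicates 1 and 3 were the highest in both dosed groups. The group means were 123 ± 20.99 (SD, n = 5) at 3 mg/kg and 71.4 ± 6.27 (SD, n = 5) in controls.

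Psmb10 changed by 0.23 ± 0.12 (adjusted p = 0.196) on day 3, 0.38 ± 0.12 (adjusted p = 0.0286) on day 5, 0.66 ± 0.12 (adjusted p = 1.09e-05) on day 8 and 0.32 ± 0.12 (adjusted p = 0.171) on day 26. On day 8 it was also higher at 3 than at 1 mg/kg, by 0.39 ± 0.12 (adjusted p = 0.0102). The change between the effects of days 5 and 8 was 0.28 ± 0.16 (adjusted p = 0.251), which was not called. On day 5 the signals were 141, 85.0, 115, 84.5 and 92.7 at 3 mg/kg and 82.5, 77.3, 65.0, 82.4 and 66.6 in controls, again without overlap but with replicates 2 and 4 just above the highest control. The day 5 call was lost without control replicate 3 or 5 or treated replicate 1 or 3, at 0.28 to 0.35.

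Psmb8, which takes the place of Psmb5, was called on no day. Its changes at 3 mg/kg were 0.25 ± 0.16 (adjusted p = 0.342) on day 3, 0.42 ± 0.16 (adjusted p = 0.0967) on day 5, 0.37 ± 0.16 (adjusted p = 0.0689) on day 8 and 0.60 ± 0.17 (adjusted p = 0.0733) on day 26. The day 8 signals were 158, 105, 161, 78.0 and 86.7 at 3 mg/kg, 128, 102, 149.8, 94.3 and 73.2 at 1 mg/kg and 85.5, 102, 73.9, 98.0 and 65.4 in controls. At 3 mg/kg replicates 1 and 3 stood far above all controls, replicate 2 just above them and replicates 4 and 5 within their range. The day 8 change was called without control replicate 2 (0.43) or treated replicate 4 (0.48) or 5 (0.45), and the day 26 change without treated replicate 2 (0.75). On day 26 the signals were 158, 65.2, 115, 111 and 104 at 3 mg/kg and 74.9, 83.5, 56.9 and 50.5 in controls, where replicate 2 alone overlapped the controls.

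Psmb9, the counterpart of the caspase-like subunit, was likewise called on no day, with changes of 0.30 ± 0.19 (adjusted p = 0.371) on day 5, 0.25 ± 0.19 (adjusted p = 0.332) on day 8 and 0.43 ± 0.21 (adjusted p = 0.287) on day 26. Its day 8 signals at 3 mg/kg were 265, 105, 284, 100.2 and 122, against 127, 128, 164, 124 and 119 in controls. Replicates 1 and 3 were far above the controls, while the other 3 animals were within or below the control range. The SD of log2(signal + 16) was 0.67 in this group and 0.16 in its controls. At 1 mg/kg on day 8 the signals were 196, 165, 212, 194 and 121, and the change was 0.37 ± 0.19 (adjusted p = 0.415).

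**Figure D3:**
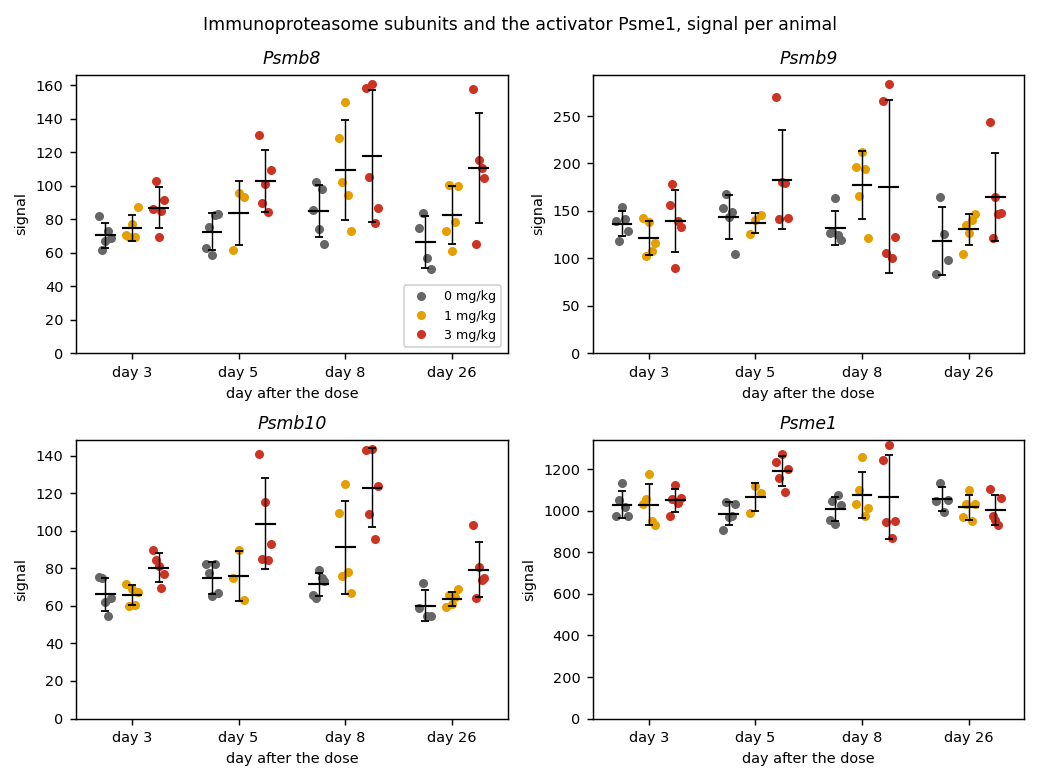
Signal of the immunoproteasome subunits Psmb8, Psmb9 and Psmb10 and of the activator subunit Psme1, 1 point per animal, by day and dose (grey 0, orange 1, red 3 mg/kg); horizontal bars are group means and error bars the SD. At 3 mg/kg on day 8, replicates 1 and 3 are the highest of the group in all 4 panels, and the rest of the group overlaps the controls for Psmb8, Psmb9 and Psme1 but not for Psmb10.

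Leukocyte genes were also highest in these animals. On day 8 at the higher dose, 7 of 17 tested leukocyte markers rose (Cd53, Cd68, Coro1a, Csf1r, Lcp1, Lyz2 and Ptprc) and 0 fell (41.2% higher, against 21.4% of all genes), and their summed signal ran from 5273 to 7232 against 4246 to 4560 in controls. The 2 highest sums, 7232 and 6726, belonged to replicates 3 and 1. On day 5 the sums overlapped, at 4995 to 5667 for 3 mg/kg and 4764 to 5867 for controls, and on day 26 they did not, at 5039 to 5776 and 4278 to 4646. Ptprc, the pan-leukocyte surface marker CD45, had signals of 139.6, 73.5, 161, 78.9 and 89.6 in replicates 1 to 5. The markers Cd3d, Cd79a, Cd79b, Ms4a1, Itgam and Gzmb gave no tested gene. The part of leukocytes in the immunoproteasome values was not tested. In these bulk samples, more cells of a type and more RNA per cell cannot be told apart.

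Interferon-regulated genes of the class I pathway were read in the same animals. Irf1, a transcription factor that induces the immunoproteasome genes, had signals of 203, 114, 198, 118 and 123 in replicates 1 to 5 at 3 mg/kg on day 8. Tap1, the peptide transporter encoded beside Psmb9, had signals of 71.7, 43.9, 78.2, 39.5 and 47.0. Replicates 1 and 3 were again the highest for both genes. Irf1 rose by 0.81 ± 0.15 (adjusted p = 2.72e-05) and Tap1 by 0.57 ± 0.14 (adjusted p = 0.00112). In the list of interferon and class I genes, 6 of 22 rose on day 8 and 0 fell (Irf1, Tap1, Cxcl10, Cxcl11, Irf9 and Tapbp), 2 rose on days 3 and 5 (Cxcl10 and Cxcl11) and 1 on day 26 (Irf9). The day 8 share was 27.3%, against 21.4% of all genes, the median change of the list was 0.097, and 12 of the 22 changes were above 0. On days 3, 5 and 26 the median change was 0.16, 0.085 and 0.30, with 18, 17 and 21 of the 22 above 0. The median was thus highest on day 26, when 10 of the 22 had an unadjusted p under 0.05.

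The 36 other subunit genes were highest in another animal than the immunoproteasome genes. In replicates 1 to 5 at 3 mg/kg on day 8, the mean deviation of these 36 genes from the control mean was 0.094, 0.24, 0.043, 0.13 and 0.12 on the log2 scale. The mean over Psmb8, Psmb9 and Psmb10 in the same animals was 0.87, 0.17, 0.90, -0.027 and 0.21. Replicate 2 was the highest animal for 20 of the 36 genes and replicate 3 the lowest for 17. Replicate 3 thus had the highest mean of the immunoproteasome genes and the lowest mean of the other genes. The median signal of the whole array was 20.3 in replicate 2, the lowest of the group, 25.6 in replicate 3, the highest, and 23.8 to 25.3 in the other animals. Its part in the order of the animals was not tested.

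Tubular markers also separated these animals. Umod, the uromodulin gene of the thick ascending limb, had signals of 785, 2.68, 921, 21.6 and 5.37 in replicates 1 to 5, against 2393 to 3177 in controls. Havcr1 had signals of 2177, 829, 679.7, 1581 and 1639.5, against 1.73 to 10.2 in controls. Replicates 1 and 3 kept the most Umod, and replicate 3 had the least Havcr1. The summed signal of 6 markers of the thick ascending limb and distal tubule ran from 728 to 5623 at 3 mg/kg and from 10442 to 11744 in controls on day 8, and all 6 fell. That of 9 proximal tubule markers ran from 18418 to 20155 and from 17650.1 to 20430.3, but 3 of the 9 fell and 1 rose. The changes of these 9 ran from -1.70 to 0.41. All 9 tested genes of dividing cells rose, and 4 of 6 markers of injured tubule did. Markers that fell were 4 of 6 for collecting duct, 3 of 5 for endothelium and 2 of 4 for podocytes. Of all genes tested, 21.4% rose and 15.9% fell on that day. The part of these markers in the proteasome values was not tested.

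**Figure D4:**
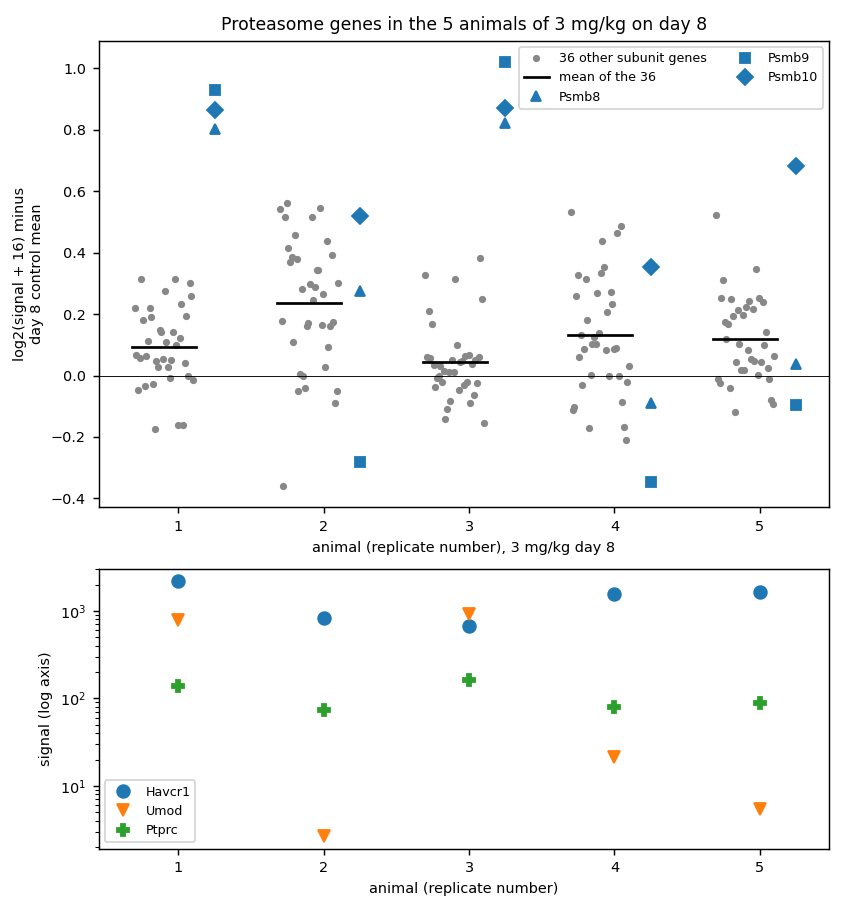
Upper panel: deviation of log2(signal + 16) from the day 8 control mean in the 5 animals of 3 mg/kg on day 8, with 36 subunit genes in grey, their mean as a black bar, and Psmb8, Psmb9 and Psmb10 as blue symbols; lower panel: signals of Havcr1, Umod and Ptprc in the same animals on a log axis. Psmb8 and Psmb9 are highest in replicates 1 and 3, which also have the highest Ptprc and Umod signals, while the black bar is highest in replicate 2.

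Among the ATPases that unfold the substrate, 2 of 6 rose on day 3 (Psmc2 and Psmc4), 3 on day 5 (Psmc1, Psmc2 and Psmc3) and 2 on day 8 (Psmc4 and Psmc6). The shares of all genes that rose on these days were 5.57%, 5.31% and 21.4%. All 6 ATPases had changes above 0 on days 5 and 8. Psmc3 had day 5 signals of 693, 625, 670.2, 591 and 611 at 3 mg/kg and 561, 565, 529, 569 and 565 in controls, without overlap. It rose by 0.19 ± 0.054 (adjusted p = 0.0208) on day 5 and changed by 0.028 ± 0.054 on day 8. The day 5 call was lost without control replicate 3 or treated replicate 1 or 3, at 0.16 to 0.17.

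Psmc6 had day 8 signals of 474, 481, 487, 494 and 456 at 3 mg/kg and 427, 343, 396, 389.8 and 392 in controls. All treated animals lay above all controls, with little spread between them. It rose by 0.29 ± 0.062 (adjusted p = 0.000196), and its effect on day 26 was lower than on day 8 by 0.37 (adjusted p = 0.00301). Psmc6 has 3 probe sets, whose day 8 changes were 0.29, 0.44 and 0.035, the last of which was not called. Psmc2 rose by 0.16 ± 0.039 (adjusted p = 0.00618) on day 3 and 0.16 ± 0.039 (adjusted p = 0.00693) on day 5.

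Of the 11 non-ATPase subunits of the regulatory particle, 2 rose on day 3 (Psmd2 and Psmd4), 1 on day 5 (Psmd4) and 4 on day 8 (Psmd1, Psmd7, Psmd12 and Psmd14). The shares of all genes that rose on these days were 5.57%, 5.31% and 21.4%. Psmd2, a large scaffold that binds ubiquitin-like domains, had day 3 signals of 832, 836, 803, 793 and 810.4 at 3 mg/kg and 699.8, 705, 679, 699 and 671 in controls. The groups did not overlap, and each had little spread. The change was 0.23 ± 0.048 (adjusted p = 0.000995) on day 3, 0.082 ± 0.048 (adjusted p = 0.296) on day 5 and 0.096 ± 0.048 (adjusted p = 0.108) on day 8. Among the 6 genes called on day 3, only Psmd2 stayed called when the actin ratio, which differed between these groups, was a covariate. Psmd4, a ubiquitin receptor, rose by 0.16 ± 0.052 on day 3 and 0.15 ± 0.052 on day 5.

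Psmd14 encodes the deubiquitinase that cuts the ubiquitin chain off the substrate. Its day 8 signals were 489, 576, 408, 473 and 499 at 3 mg/kg and 373, 377, 413, 441 and 349.9 in controls, and only treated replicate 3 lay within the control range. It rose by 0.31 ± 0.080 (adjusted p = 0.00204) on day 8, and its other 2 probe sets changed by 0.18 (not called) and 0.23 (called). Psmd1, the second large scaffold, rose on day 8 by 0.25 ± 0.069 (adjusted p = 0.00375). Psmd7, which partners Psmd14, rose by 0.18 ± 0.064 (adjusted p = 0.0251), and by 0.29 on its other probe set. Psmd3, Psmd6, Psmd8, Psmd11 and Psmd13 were called on no day.

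Of the chaperones that help to assemble the base of the regulatory particle, Psmd5 and Psmd10 rose on day 8 and Psmd9 did not pass the test on any day. Psmd5 had day 8 signals of 354, 410.0, 307, 417 and 355 at 3 mg/kg and 315, 304, 308, 285 and 281 in controls. Replicates 2 and 4 were the highest and replicate 3 fell inside the control range. The change was 0.28 ± 0.057 (adjusted p = 8.77e-05) on day 8, and 0.15 ± 0.057 (adjusted p = 0.0802) on day 5, where all treated animals (337, 300.0, 317, 303 and 314) were nevertheless above all controls (292, 275, 289, 269.7 and 278). Psmd10, also known as gankyrin, rose by 0.16 ± 0.062 (adjusted p = 0.0336) on day 8. Psmd9 changed by 0.011 ± 0.066.

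The activators form caps that open the core without ubiquitin. Psme1 and Psme2 build the interferon-inducible cap, and Psme4 a separate large cap. Psme1 had day 5 signals of 1238, 1157, 1274, 1089.8 and 1204 at 3 mg/kg and 910.3, 1045, 973, 974 and 1033 in controls, without overlap. On day 8 the treated signals were 1247, 945, 1319.7, 869 and 952, against 958, 1047, 938, 1078 and 1027 in controls. Replicates 1 and 3, the animals with the highest immunoproteasome signals, were above all controls, and the other 3 animals were at the lower end of the control range or below it.

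Psme1 rose on day 5 by 0.27 ± 0.076 (adjusted p = 0.0186) and changed by 0.061 ± 0.076 (adjusted p = 0.562) on day 8. The day 5 call was lost without control replicate 1 (0.24) or treated replicate 1 (0.25) or 3 (0.24), and when the probe sets of a gene were averaged (0.14). Psme2 was called on no day, with 0.21 ± 0.084 (adjusted p = 0.103) on day 5 and 0.068 ± 0.084 (adjusted p = 0.554) on day 8. Its day 8 signals of 529.8, 424, 526, 434 and 411 at 3 mg/kg again had replicates 1 and 3 on top, against 406 to 460.4 in controls. Psme4 changed by 0.045 ± 0.066 on day 8 on the probe set used, while its other probe sets gave -0.31, which was called, and -0.016.

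The symbol rule also took Psme3ip1 and Psmc3ip. Psme3ip1, whose product binds the nuclear activator encoded by Psme3, rose on day 3 and was called on no other day. Its day 3 signals were 330.1, 324, 324, 359 and 352 at 3 mg/kg, 257, 293, 301, 321 and 328 at 1 mg/kg and 276, 277, 242, 262 and 268 in controls. All animals at 3 mg/kg were above all controls, and those at 1 mg/kg lay between and overlapped both. The change was 0.33 ± 0.063 (adjusted p = 0.000382) on day 3 at 3 mg/kg and 0.17 ± 0.063 (adjusted p = 0.595) at 1 mg/kg. Psmc3ip, a meiotic recombination cofactor, was called on no day.

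At 1 mg/kg, 0 of the 39 genes were called on any of the 4 days, and at an unadjusted p under 0.05 there were 1, 0, 2 and 3 on days 3, 5, 8 and 26. Of all genes tested, 0.0942%, 0.0171%, 0.522% and 0.00856% were called. The median change of the 39 genes was 0.030, -0.014, -0.0051 and -0.013. The largest changes on day 8 were those of Psmb9 (0.37 ± 0.19), Psmb8 (0.29 ± 0.16) and Psmb10 (0.27 ± 0.12). All other genes were between -0.12 and 0.14 on that day.

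A direct comparison of 3 with 1 mg/kg called 17 of the 39 genes on day 8, all higher, where 23.1% of all genes were called. The 3 with the largest difference were Psmb10 (0.39 ± 0.12), Psmd14 (0.31 ± 0.080) and Psmd5 (0.30 ± 0.057). The 17 genes included Psma7, Psmb2 and Psmc1, which were not called against controls on that day; both comparisons use the same animals of 3 mg/kg. A fit of the compared groups alone called 0 of 39 here, while the 23.1% of all genes is the share in the main fit. On day 5, 5 genes were called, all higher (Psmb4, Psmb5, Psmc1, Psmc2 and Psmc3), where 3.97% of all genes were called. The day 5 count was 2, 2 and 1 without replicates 1, 2 and 3 of 1 mg/kg, and 1 and 3 without replicates 1 and 2 of 3 mg/kg. On days 3 and 26, 0 genes were called, where 3.12% and 0% of all genes were; the day 3 count was 2 without replicate 5 of 1 mg/kg.

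With each animal left out in turn, the count on day 8 stayed between 13 and 18. Counted without a fit, all treated animals were above all controls for 6, 11, 6 and 0 of the 39 genes on days 3, 5, 8 and 26. Of all genes, 5.69%, 5.29%, 9.41% and 3.62% had such separated groups with the treated animals higher. Of the 39 genes, Psma1 on day 3 alone had all animals of 3 mg/kg below all controls (4.55% of all genes on that day). At 1 mg/kg the groups were separated only for Psmd12 on day 26, with the treated animals lower (1.41% of all genes).

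Between days 8 and 26 the effect of 3 mg/kg became lower for 8 of the 39 genes and higher for 0, where 15% of all genes changed. These were Psma1, Psma5, Psmb3, Psmc4, Psmc6, Psmd5, Psmd10 and Psmd14, with differences from -0.19 (Psmc4) to -0.58 (Psma1). The count was 5 without treated replicate 2 of day 8 or of day 26 and 13 without treated replicate 3 of day 8, and 3 when the compared groups were fitted alone. No immunoproteasome gene was among them: the difference was 0.23 ± 0.24 (adjusted p = 0.583) for Psmb8, 0.19 ± 0.28 (adjusted p = 0.721) for Psmb9 and -0.34 ± 0.17 (adjusted p = 0.178) for Psmb10. In controls, 1 of the 39 genes differed between days 26 and 3 (Psmc4, 0.17 higher on day 26, adjusted p = 0.044), where 2.03% of all genes did.

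Genes around the proteasome were read from lists. Nfe2l1, the factor that restores proteasome genes, was called on no day, at -0.019 ± 0.064 (adjusted p = 0.884), 0.018 ± 0.064 (adjusted p = 0.904) and -0.10 ± 0.064 (adjusted p = 0.21) on days 3, 5 and 8. Its day 8 signals were 237, 192, 238, 251 and 265 at 3 mg/kg and 254, 265, 256, 253 and 241 in controls. Nfe2l2 rose on days 3, 5 and 8 by 0.41 ± 0.092, 0.32 ± 0.092 and 0.54 ± 0.092. Of the 14 tested regulators, 5 rose (35.7%) and 1 fell on day 8, against 21.4% and 15.9% of all genes; the largest rises were those of Maff (0.95), a small partner of both factors, and Stat3 (0.60). Ddi2, the protease that activates the Nfe2l1 protein, rose by 0.26.

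Antioxidant targets of Nfe2l2 were read beside it. Of 14 tested antioxidant genes, 9 rose (64.3%) and 3 fell on day 8, against 21.4% and 15.9% of all genes, led by Gpx2, a glutathione peroxidase (2.49), Srxn1, sulfiredoxin (2.17), and Akr1b8, an aldo-keto reductase (1.72). Gclc, which makes the first step of glutathione synthesis, fell by 1.43. On day 3, 5 of the 14 rose and on day 5, 8, against 5.57% and 5.31% of all genes.

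Among assembly factors and associated proteins outside the symbol rule, 6 of 16 rose (37.5%) and 1 fell on day 8, against 21.4% and 15.9% of all genes. The largest rise was that of Txnl1, a thioredoxin bound to the regulatory particle, by 0.40 ± 0.071 (adjusted p = 1.19e-05). The shuttle factor Ubqln2 rose by 0.32, and Ecpas, a proteasome adaptor, by 0.29. The deubiquitinases of the regulatory particle went opposite ways: Usp14 rose by 0.20 ± 0.049 (adjusted p = 0.000958) and Uchl5 fell by 0.21 (adjusted p = 0.00276). Pomp, the chaperone of core assembly, was called on no day (0.043 ± 0.047 (adjusted p = 0.506) on day 8).

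In the ubiquitin list, 4 of 16 tested genes rose (25%) and 3 fell on day 8, against 21.4% and 15.9% of all genes. Sqstm1, the autophagy receptor p62 and a target of Nfe2l2, rose by 0.51 ± 0.074 (adjusted p = 2.56e-07). The heat shock cochaperones Bag3 and Dnajb1 fell by 0.57 and 0.35. On day 26, 0 of 16 ubiquitin genes and 0 of 16 associated proteins were called.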

How the data were processed

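The authors deposited linear intensities, with 1 value for each probe set of each array. The submitters' processing notes name MAS5, without a version. The 2% trimmed mean of each array was 99.99. Probe sets took their gene from the platform annotation. Of 31099 probe sets, 57 control probe sets were left out, 20826 had 1 symbol, 436 several and 9780 none. Kept were 21829 above the 40th percentile of their array on at least 3 arrays, and each gene was read from its probe set of highest mean.

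The values log2(signal + 16) were fitted with limma 3.58.1 in R 4.3.3 over 12 group means, with an intensity trend. Tests were two-sided, adjusted by Benjamini-Hochberg over 11683 genes, at 0.05. Standard errors pool the spread of all groups, so they are too small for a gene that varies more in the groups compared. The script was tested on simulated data. The number of arrays limits the precision.

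Groups and replicate numbers came from the labels, which call the replicates biological. Numbers shared between groups were not used to pair animals in the main fit. Genes given with animal values were the immunoproteasome subunits, Psme1, Psme2, Psmb5 and Psmb7, the largest change and lowest p of each subunit group on day 8, the 4 largest called changes per comparison, and genes called against the majority; other lists name up to 3 called genes of largest change on day 8 and Nfe2l1, Nfe2l2 and Pomp. Other genes are named where a count is spelled out, or as values beside a result, and were then chosen after their values were seen. The members and lists were chosen with earlier results of these data known. Alternatives are listed in the closing section.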

Additional observations from a re-analysis of the deposited data

Results flagged for a closer look

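In groups of 4 or 5 animals, 198 sets of signals were looked at for a single animal apart from the rest (18 genes in 11 groups), and 9 were found; chance gives about 1 in 20. At 3 mg/kg on day 26, replicate 1 had a Psme2 signal of 535, with the nearest animal at 403, and a Psmb5 signal of 1189, with the nearest at 1137. At 3 mg/kg on day 5, replicate 1 had a Psmb4 signal of 1316 (nearest 1244) and replicate 5 a Psmb7 signal of 596 (nearest 644). The Psmb3 signal was 769 in replicate 4 of 3 mg/kg on day 3 (nearest 728) and 677 in replicate 1 of 1 mg/kg on day 8 (nearest 598). Among controls, Psmb9 was 164 in replicate 3 of day 8 (nearest 128), Psmc3 529 in replicate 3 of day 5 (nearest 561) and Psma5 743 in replicate 1 of day 5 (nearest 615).

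The effect of 3 mg/kg differed between days for 7 of the genes described with animal values, by a test of the difference in the limma fit. From day 5 to day 8 it changed by 0.45 for Psma1 and by -0.23 for Psmb5. From day 8 to day 26 it changed by -0.58 for Psma1, -0.37 for Psmc6, -0.36 for Psmd5, -0.36 for Psmd14, -0.30 for Psma5 and -0.25 for Psmb3. The control animals of day 8 enter both differences for Psma1, and control replicate 2 of day 8 had the lowest Psma1 signal of that group, 465.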

How the results depend on the processing

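Counts of called proteasome genes under other settings follow, with the main count in brackets. Shares of all genes called under these settings are not given, and the cause of each move was not tested. With the actin ratio as a covariate, 1 gene was called for 3 mg/kg on day 3 (6), 3 for 3 against 1 mg/kg on day 5 (5) and 0 for control day 26 against day 3 (1). With the compared groups fitted alone, the spread comes from fewer arrays and from those groups only. The counts were then 7 for 3 mg/kg on day 8 (15), and 1, 0 and 0 for 3 against 1 mg/kg on days 3, 5 and 8 (0, 5 and 17). Under the same setting they were 3 for the change from day 8 to day 26 (8) and 0 for control day 26 against day 3 (1). Quantile normalization gave 1 for 3 against 1 mg/kg on day 3 (0), 4 for the change from day 5 to day 8 (2) and 0 for the controls (1). Centring on the 75th percentile gave 2 for 3 against 1 mg/kg on day 5 (5), array weights 3 for 3 against 1 mg/kg on day 3 (0), and eBayes without trend 0 for the controls (1). All other counts under these settings, no offset, an offset of 64, no filter and averaged probe sets stayed within 1.5 times the main count. No value changed its direction past the threshold.

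With 1 animal left out in turn, the counts at 3 mg/kg ran from 4 to 6 on day 3, 3 to 10 on day 5, 13 to 18 on day 8 and 0 to 1 on day 26, the last without replicate 2 of 3 mg/kg. For 3 against 1 mg/kg they ran from 0 to 2 on day 3, 1 to 4 on day 5 and 12 to 19 on day 8. The change from day 5 to day 8 gave 2 to 7, with 7 without replicate 3 of 3 mg/kg on day 8, the change from day 8 to day 26 gave 5 to 13, and the controls gave 0 to 1. At 1 mg/kg all counts were 0.

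With the replicate number as a block, the counts for 3 mg/kg on days 3, 5 and 8 were 5, 10 and 15, and that for 3 against 1 mg/kg on day 3 was 1 (0). What the numbers mark across groups is not stated, and these correlations cannot show whether a weak pairing exists. Deviations of same-numbered animals correlated at -0.17 to 0.26 over the comparisons. On day 5 all were positive, at 0.015 to 0.21 for 3 mg/kg and 0.053 to 0.15 for 1 mg/kg. There, 3 of 5 and 2 of 3 treated animals correlated best with their own number. In no comparison did every treated animal do so. Among changes of single genes and medians of the family under an alternative, 27 lost a call, 10 gained one, 3 medians moved beyond the spread and 2838 did none of these. This count leaves out, for single genes, the settings of no filter, eBayes without trend and the compared groups fitted alone.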

Other observations

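On day 26, replicate 1 of 3 mg/kg stood apart for constitutive and immunoproteasome genes alike. It had the highest signal of its group for 24 of the 36 constitutive, regulatory and activator genes, and the highest Psmb8 (158, 65.2, 115, 111 and 104 in replicates 1 to 5), Psmb9 (244, 122, 164, 146 and 148) and Psmb10 (103, 63.9, 80.8, 73.8 and 74.9). Its mean deviation over the 3 immunoproteasome genes was 0.91, against 0.049 to 0.50 in the other animals of the group, and over the 36 other genes 0.071, against -0.057 to -0.023. The leukocyte marker sum of the 5 animals was 5752, 5039, 5141, 5776 and 5579, so that replicate 4 was as high as replicate 1.

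At 1 mg/kg on day 8, replicates 1 and 3 had the highest signals of Psmb8, Psmb9 and Psmb10 and also of the injury marker Havcr1, at 912, 32.4, 1085, 32.9 and 17.6 in replicates 1 to 5. At 3 mg/kg on the same day, replicate 3 had the highest Psmb9 but the lowest Havcr1 signal of its group. The actin 3′/5′ ratio of replicate 1 at 1 mg/kg was 8.58, against 4.52 to 6.01 in the other animals of its group, and its GAPDH ratio was 1.66, against 1.29 to 1.41. Their part in its values was not tested. The replicate numbers of different groups are separate animals.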
